A study of Sus scrofa with 3 samples.

Results

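The transcripts described here were weakly expressed in pig muscle and appeared in the precipitate of the EZH2 antibody while being listed at 0 in that of the IgG control. They were chosen by their measured values in all 3 libraries: a lincRNA_FPKM above 0.1 and at most 1, an EZH2_FPKM above 0 and an IgG_FPKM of 0. They also had to lie on chromosomes 1 to 18 and to stand on 2 identical rows of the deposited data. These conditions selected 2666 transcripts of 14580, or 18.3%. The study's own list of EZH2-binding lincRNAs began above a lincRNA_FPKM of 1, so the class lies below that limit. That list also required low coding potential and enrichment in the EZH2 precipitate, and repetitive lincRNAs were removed by hand. None of these steps was used to choose the members, so the class differs from the list in more than expression level. Since EZH2_FPKM, IgG_FPKM and lincRNA_FPKM all chose the members, their levels and ratios are a description and no test was made of them.

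The material was longissimus dorsi, a muscle of the back, from 1-month-old Large White female pigs. The study's text speaks of pigs in one place and of a single pig in another, so the number of animals behind a library is not certain. EZH2 RIP-Seq sequenced the RNA brought down with an EZH2 antibody, IgG RIP-Seq the RNA brought down with IgG, and lincRNAseq the total RNA of the muscle after removal of ribosomal RNA. There was 1 library of each kind and no replicate, so no difference between libraries can be set against a spread between animals or repeats. FPKM expresses sequenced fragments relative to transcript length and library size.

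PRC2 is a Polycomb complex that keeps genes silent, and EZH2 is its enzyme, which adds methyl groups to histone H3 at lysine 27. PRC2 binds many RNAs, and long intergenic noncoding RNAs (lincRNAs) have been studied as partners that may bring it to chromatin. In muscle, EZH2 is known for holding back differentiation genes in proliferating precursor cells. The transcripts carry assembly identifiers (TCONS numbers) on a chromosome and no gene names, so markers of muscle or of other cell types in the tissue were not analysed here. In bulk tissue, fewer cells of a type and less RNA per cell cannot be told apart, which applies to every lincRNA_FPKM given here.

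The EZH2_FPKM of the members had a median of 2.44, with quartiles of 1.25 and 4.74. It was above 10 in 215 members (8.07%), above 100 in 5, and at most 1 in 459. Their lincRNA_FPKM had a median of 0.361 and quartiles of 0.274 and 0.488. The narrow range in total RNA was set by the selection, which bounds lincRNA_FPKM on both sides and leaves EZH2_FPKM open above 0. EZH2_FPKM and lincRNA_FPKM had a Spearman correlation of 0.12 across the 2666 members, which come from the same libraries and are not independent replicates. The rule bounds lincRNA_FPKM, and this value pools stretches of transcript numbers, defined further on, that differ in level. The strength of the relation is therefore not read from it. In the late stretch the median EZH2_FPKM rose from 1.25 in the lowest to 2.86 in the highest lincRNA_FPKM class. Summed over all 14580 transcripts, EZH2_FPKM came to 6.93% from the members, and lincRNA_FPKM to 0.45%, while the members were 18.3% of the transcripts. The rule holds lincRNA_FPKM of each member to at most 1 and sets no upper limit on EZH2_FPKM. Nothing is read from the contrast.

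The ratio of the precipitate to total RNA was taken as log2[(EZH2_FPKM + 2)/(lincRNA_FPKM + 2)], the form the study used where IgG_FPKM was 0, with a threshold of 1. Its median was 0.89, with quartiles of 0.45 and 1.48. It was at or above 1 in 1190 members and below 1 in 1476, so that 44.6% passed, beside 20.2% of all 14580 transcripts. As the EZH2_FPKM and lincRNA_FPKM limits of the class act on this ratio directly, nothing is read from the gap between these shares. At a threshold of 2, 342 members passed (12.8%), beside 8.83% of all transcripts. Among the 5523 transcripts above 0 in both EZH2 RIP-Seq and lincRNAseq the median ratio was 0.79. Of these 5523, 41.4% were at or above 1 and 14.3% at or above 2. Taken relative to the median of 0.79, the members' median was 0.10 and 456 were at or above 1 (17.1%), beside 10.5% of all transcripts. The shares of all transcripts include those at 0 in EZH2, which the rule kept out of the members. Nothing is read from these gaps either.

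Without the added 2, EZH2_FPKM was above lincRNA_FPKM in 2615 members (98.1%), and their quotient had a median of 6.69 with quartiles of 3.32 and 12.8. The added constant is large beside values below 1 and draws the ratio towards 0 on the log2 scale. It lowers the ratio of the 2615 members with EZH2_FPKM above lincRNA_FPKM and raises that of the other 51. Against IgG in place of total RNA, with the same 2 added, 1537 members passed the threshold, which is the number with an EZH2_FPKM of at least 2. Of all 14580 transcripts, 25.8% passed in this form. Here too the rule set IgG_FPKM to 0, so the count describes only how high EZH2_FPKM was.

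**Figure D1:**
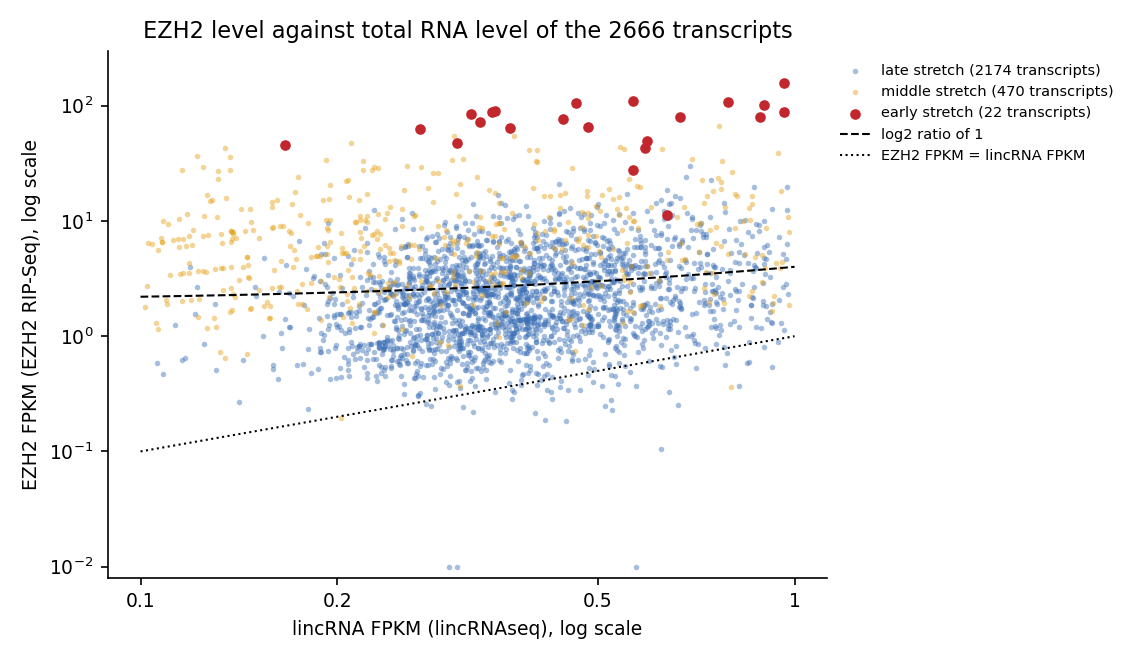
EZH2 FPKM (log scale) against lincRNA FPKM (log scale) of the 2666 transcripts, 1 point each, coloured by the stretch of transcript numbers that holds them; values below 0.01 are drawn at 0.01. The dashed line marks a log2 ratio of 1 and the dotted line equal FPKM values; the 22 transcripts of the early stretch all lie above the dashed line.

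The members were a share of a larger low-expressed population. On the same chromosomes, 6606 transcripts on 2 rows had a lincRNA_FPKM above 0.1 and at most 1. Of these, 2666 were members (40.4%, 95% Wilson interval 39.2 to 41.6, which covers counting error over transcripts only), 361 were above 0 in both precipitates, 98 in IgG alone and 3481 in neither. Among all 14580 transcripts, 37.1% were above 0 in EZH2 and at 0 in IgG. Above a lincRNA_FPKM of 1 the same pattern held for 582 of 1473 transcripts (39.5%, interval 37.1 to 42.0). The share below the limit was not even, and just under it, at a lincRNA_FPKM above 0.8 and up to 1, it was 31.5% (interval 26.7 to 36.6).

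Levels and ratios did differ across that limit. The 582 transcripts above it had a median EZH2_FPKM of 4.68, and their log2 ratio had a median of 0.34, with 33.3% at or above 1. Their quotient of EZH2_FPKM to lincRNA_FPKM had a median of 1.59, against 6.69 in the members. The lincRNA_FPKM limits fix the denominator of these ratios. The order of the EZH2_FPKM medians also depended on the stretch of transcript numbers, defined further on. It was 78.3 in members and 127.7 above the limit in the early stretch, 6.10 and 5.71 in the middle stretch, and 2.05 and 2.90 in the late stretch. The 361 low-expressed transcripts above 0 in both precipitates had a median EZH2_FPKM of 3.25 and a median log2 ratio of 1.09, somewhat above the members in both.

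An IgG_FPKM of 0 has to be read against the depth of that library. For 470 transcripts with EZH2_FPKM and IgG_FPKM both above 0 and at most 10, the quotient of IgG_FPKM to EZH2_FPKM gathered at a few values. Within 0.5%, 51 transcripts lay at 5.05, 41 at 2.52, 31 at 1.68, 28 at 1.26 and 14 at 10.1. These are the quotients of 1 IgG fragment to 1, 2, 3 and 4 EZH2 fragments and of 2 IgG fragments to 1, if the FPKM of 1 fragment in IgG RIP-Seq was 5.05 times that in EZH2 RIP-Seq. A transcript with up to 5 fragments in EZH2 RIP-Seq would thus fall below 1 fragment in IgG RIP-Seq at an equal FPKM. How many members are that low was not counted, since it depends on transcript lengths, which were not used here. An equal FPKM in both precipitates could be seen at such depth, as in 15 transcripts at a quotient of 1.01 (1 IgG fragment to 5 EZH2 fragments), but a transcript with less than 1 expected fragment can also be listed at 0.

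**Figure D2:**
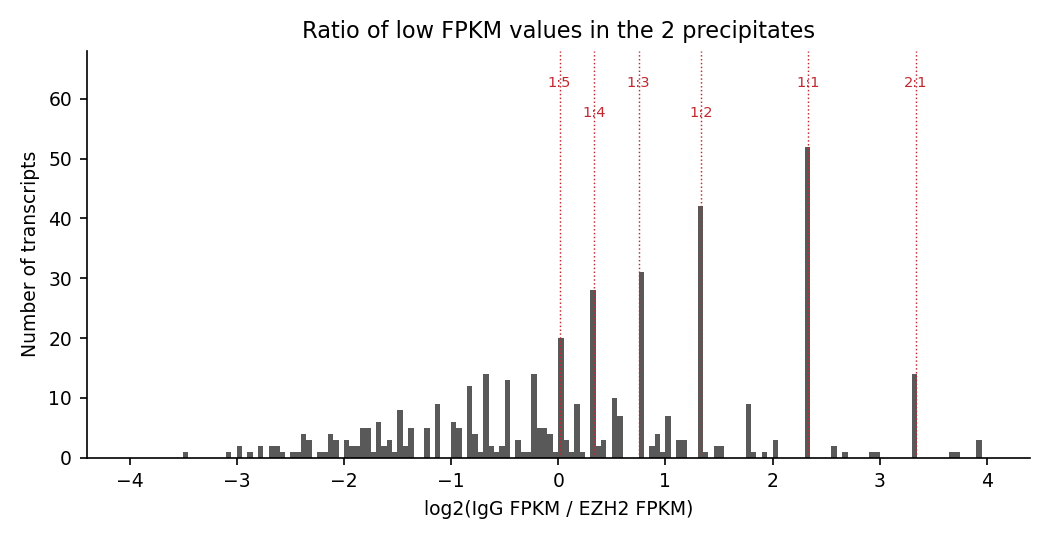
Number of transcripts (vertical axis) by log2 of IgG FPKM over EZH2 FPKM (horizontal axis, bins of 0.05) for 470 transcripts at most 10 FPKM in both precipitates, 15 of which lie outside the plotted range. Dotted lines mark whole-number quotients of IgG to EZH2 fragments, and the highest bar stands at 1:1, an FPKM quotient of 5.05.

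Detection in the IgG precipitate differed with the level in the EZH2 precipitate. Among low-expressed transcripts above 0 in EZH2, IgG_FPKM was above 0 in 10.9% at an EZH2_FPKM of at most 1, in 8.72% up to 2 and in 10.9% up to 5. Above 5 the share was 16.8% up to 10, 17.3% up to 50, and 26.9% (Wilson interval 13.7 to 46.1) of the 26 transcripts above 50. Among those at 0 in EZH2 it was above 0 in 2.74%. The condition of an IgG_FPKM of 0 left 19 members above 50. By stretch of transcript numbers, defined further on, IgG_FPKM was above 0 in 7 of 29 early (24.1%, 12.2 to 42.1), in 8.20% (6.13 to 10.9) of middle and in 12.6% (11.3 to 13.9) of late low-expressed transcripts above 0 in EZH2. The early stretch, where EZH2_FPKM was highest, had the highest share, with an interval that overlaps that of the late stretch. The share was lower in the middle than in the late stretch, although EZH2_FPKM was higher in the middle. The part of depth in the membership of single transcripts was not tested.

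The 10 members with the highest EZH2_FPKM held 8.33% of the members' summed EZH2_FPKM. The highest was TCONS_00059349 on chromosome 7, with 157.2 in EZH2_FPKM, 0 in IgG_FPKM and 0.964 in lincRNA_FPKM, which gives a log2 ratio of 5.75. Second came TCONS_00021434 on chromosome 14, with 109.3, 0 and 0.565 in the same order (log2 ratio 5.44). Its neighbour in rank, TCONS_00059348 on chromosome 7, had 108.1 in EZH2, 0 in IgG and 0.790 in lincRNAseq (5.30). TCONS_00059348 and TCONS_00059349 are adjacent in the numbering.

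TCONS_00016121 on chromosome 13 had 106.5 in EZH2, 0 in IgG and 0.464 in lincRNAseq, and its log2 ratio of 5.46 was the second largest of all members. TCONS_00035712 on chromosome 2 had 101.7 in EZH2, 0 in IgG and 0.897 in lincRNAseq (5.16). These 5 are the members above 100, and their lincRNA_FPKM ran from 0.464 to 0.964. TCONS_00021600 on chromosome 14 reached 89.6 in EZH2, 0 in IgG and 0.348 in lincRNAseq (5.29). TCONS_00059350 on chromosome 7, the next number after the highest member, had 88.9, 0 and 0.345 in the same order (5.28).

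The remaining 3 of the 10 lay close together. TCONS_00035634 on chromosome 2 had 87.8 in EZH2, 0 in IgG and 0.963 in lincRNAseq (4.92). TCONS_00025604 on chromosome 15 had 85.0 in EZH2, 0 in IgG and 0.320 in lincRNAseq (5.23). TCONS_00035721 on chromosome 2 had 80.4, 0 and 0.885 (4.84). Chromosomes 2 and 7 thus each gave 3 of the 10 highest members, chromosome 14 gave 2, and chromosomes 13 and 15 gave 1 each.

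The 10 members with the largest log2 ratio were nearly the same transcripts, with 8 shared between the lists. The others were TCONS_00028361 on chromosome 16, with 76.7 in EZH2, 0 in IgG and 0.442 in lincRNAseq (5.01), and TCONS_00049374 on chromosome 5, with 72.3, 0 and 0.330 (4.99). With 2 added to both values, a lincRNA_FPKM between 0.1 and 1 changes the ratio little, and the order of the ratios largely follows EZH2_FPKM.

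At the other end, TCONS_00043263 on chromosome 3 was listed at 6.98e-06 in EZH2, 0 in IgG and 0.296 in lincRNAseq, with a log2 ratio of -0.20. Such a value is an estimate far below 1 fragment, and 3 members had an EZH2_FPKM below 0.1. Just inside the lower lincRNA_FPKM limit stood TCONS_00042148 on chromosome 3, at 0.102 in lincRNAseq, 1.79 in EZH2 and 0 in IgG, and just outside TCONS_00010303 on chromosome 11, at 0.0997, 18.7 and 0. Just inside the upper limit stood TCONS_00063463 on chromosome 8, at 0.982, 8.001 and 0, and just outside TCONS_00050263 on chromosome 5, at 1.001, 25.9 and 0. Both transcripts outside the limits had higher EZH2_FPKM than their neighbours inside.

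The level of the members differed with their position in the transcript numbering. The rule did not use this position, but it did require 2 rows, and the row number defines the stretches below. When the listed transcripts of a chromosome were put in TCONS order, those on 2 rows formed 3 blocks on 16 of the 18 chromosomes and 4 on the others, separated by blocks of transcripts on 1 row. The last block is called the late stretch here, the one before it the middle stretch, and anything earlier the early stretch. The stretches were defined after the data had been seen, from row counts alone and without FPKM values. The files do not say what sets them apart in the assembly, and it was not tested.

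The early stretch held 22 members of 201 transcripts, the middle stretch 470 of 3896 and the late stretch 2174 of 6154, so that 81.5% of the members were late. The median EZH2_FPKM of members was 78.3 in the early, 6.10 in the middle and 2.05 in the late stretch. All 22 early members had a log2 ratio at or above 1, as did 378 of 470 middle members (80.4%) and 790 of 2174 late members (36.3%). Among all transcripts above 0 in EZH2 the shares were close to these, at 98.5% in the early, 75.2% in the middle and 35.6% in the late stretch. Nothing particular to the class is read from them. All 10 of the highest members were early. Of the 50 highest, 21 were early, 28 middle and 1 late, namely TCONS_00038738 on chromosome 2, with 30.1 in EZH2, 0 in IgG and 0.691 in lincRNAseq. This transcript was picked after its values were seen.

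The order of the middle and late stretches held on each chromosome. The median EZH2_FPKM of middle members lay between 3.49 and 12.2 over the 18 chromosomes, that of late members between 1.52 and 2.47, and the middle median was above the late median on 18 of 18. Early members were found on 11 chromosomes, with medians between 42.6 and 99.5, and the place of the early stretch could not be seen on the others. Several of these medians rest on 1 member, such as the 42.6 of TCONS_00066165 on chromosome 9. The 22 early members ranged from 11.3 for TCONS_00035696 on chromosome 2, with a lincRNA_FPKM of 0.639, to 157.2 for TCONS_00059349. The highest middle member, TCONS_00049982 on chromosome 5, had 66.9 in EZH2, 0 in IgG and 0.766 in lincRNAseq, below the early median of 78.3.

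The difference was not particular to the members. Among all transcripts above 0 in EZH2, the median EZH2_FPKM was 138.4 in 200 early, 6.71 in 1389 middle and 2.21 in 2852 late transcripts. EZH2_FPKM was above 0 in 99.5% of all early, 35.7% of all middle and 46.3% of all late transcripts. The stretches are thus not a grouping unrelated to EZH2_FPKM. The stretches also differed in total RNA: lincRNA_FPKM was above 0 in 46.3% of early, 57.7% of middle and 99.98% of late transcripts. Nearly every late transcript was thus detected in total RNA, and 85.6% of them fell in the low-expressed range, which places most members there. As a share of the low-expressed transcripts of a stretch, members made up 22 of 29 in the early (75.9%, Wilson interval 57.9 to 87.8), 36.0% in the middle (33.4 to 38.6) and 41.2% in the late stretch (39.9 to 42.6). Over all transcripts of a stretch, 76.1% of early, 32.5% of middle and 40.3% of late were above 0 in EZH2 and at 0 in IgG. The member shares are close to these, and nothing particular to low-expressed transcripts is read from them.

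**Figure D3:**
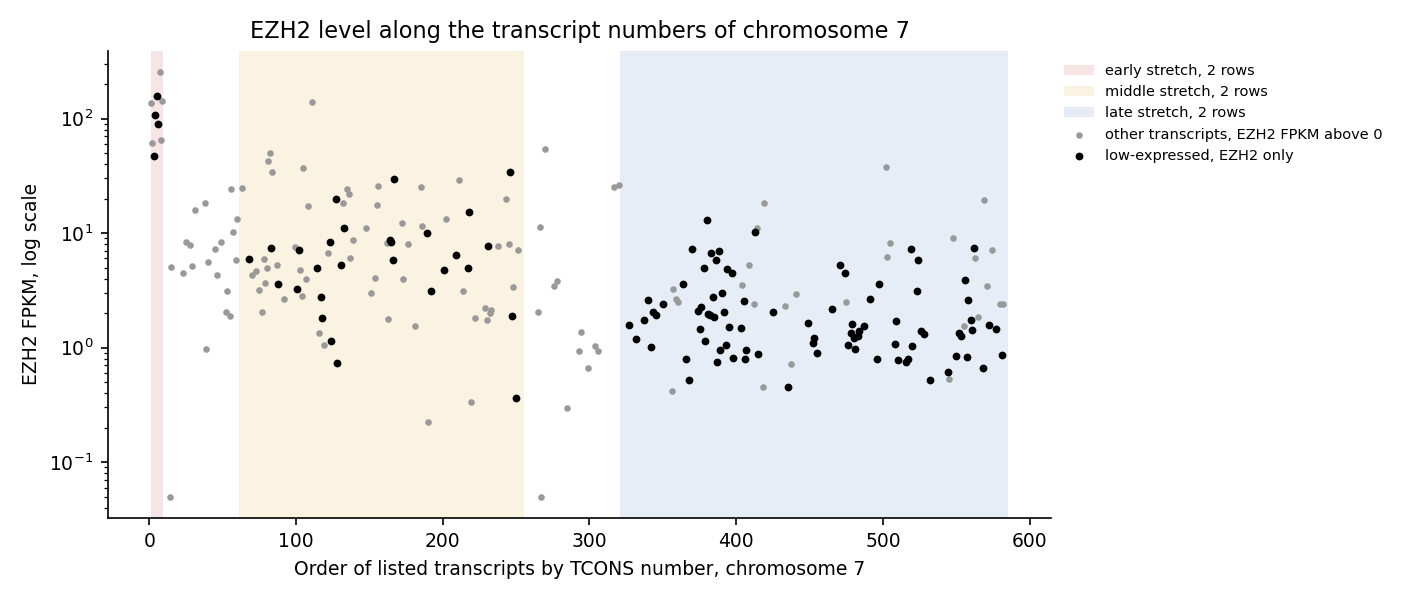
EZH2 FPKM (log scale) of transcripts of chromosome 7 with a value above 0, in the order of their TCONS numbers; black points are the low-expressed transcripts in the EZH2 precipitate only, grey points all others, and values below 0.05 are drawn at 0.05. Shading marks the early, middle and late stretches on 2 rows; the 4 early members lie between 47.1 and 157.2, and the middle members have a median of 5.88 against 1.52 in the late stretch.

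The gap between middle and late members was present at every level of total RNA. At a lincRNA_FPKM above 0.1 and up to 0.2 the median EZH2_FPKM was 5.93 in 149 middle and 1.25 in 75 late members. Above 0.3 and up to 0.4 it was 5.19 in 62 and 1.97 in 678, and above 0.8 and up to 1 it was 6.58 in 28 and 2.86 in 74. Within the late stretch the median EZH2_FPKM rose in each of the 6 classes of lincRNA_FPKM, from 1.25 to 2.86, and the share of members with a ratio at or above 1 from 26.7% to 44.6%.

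Over all stretches together the lowest class stood out from this order. The members at a lincRNA_FPKM of up to 0.2 had a median EZH2_FPKM of 3.48, followed by 1.96 in the next class and 4.23 in the highest, and 149 of the 225 members of the lowest class were middle ones. The share of low-expressed transcripts that were members was highest in between, at 44.4% of 1680 transcripts with a lincRNA_FPKM above 0.3 and up to 0.4. It was 35.5% of 634 at up to 0.2 and 31.5% of 337 above 0.8.

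The members were found on all 18 chromosomes. Chromosome 1 had the most, 400 or 15.0% of the members, followed by chromosome 13 with 297. Set against the low-expressed transcripts of the same chromosome, the share of members ran from 34.3% on chromosome 15 (Wilson interval 30.2 to 38.7) to 45.9% on chromosome 17 (37.6 to 54.3). The share over all chromosomes, 40.4%, lay inside the interval of 15 chromosomes, above those of chromosomes 9 and 15 and below that of chromosome 3 (45.0%, 40.5 to 49.7). The intervals treat transcripts as independent and cover counting error only. The median EZH2_FPKM of members by chromosome stayed between 1.96 on chromosome 7 and 2.98 on chromosome 12. Chromosome 7 therefore had the lowest median and also the highest single member.

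**Figure D4:**
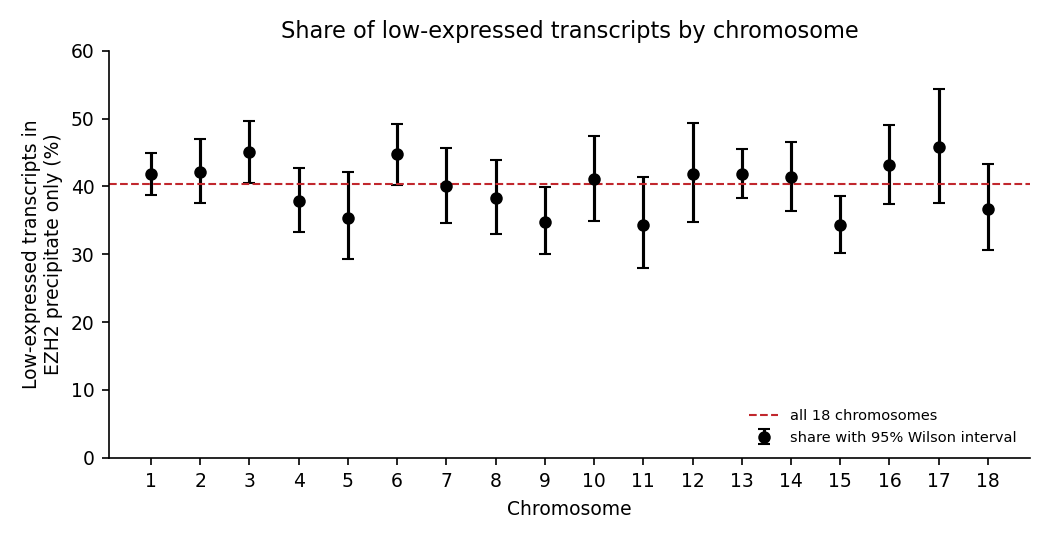
Low-expressed transcripts found in the EZH2 precipitate only, in percent of all low-expressed transcripts on 2 rows of the same chromosome, for chromosomes 1 to 18. Points are shares, bars 95% Wilson intervals and the dashed line the share over all 18 chromosomes, 40.4%, which 15 of the intervals hold.

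Many members followed each other in the numbering. A run was taken as at least 2 members of a chromosome whose TCONS numbers have no gap, and 1406 members (52.7%) lay in 514 runs, while 1260 stood alone. There were 316 runs of 2, 109 of 3, 47 of 4 and 42 of 5 or more, which held 259 members. Neighbouring numbers are common in any set of this size, and the same count was made in others. Of the 3481 low-expressed transcripts at 0 in both precipitates 55.2% lay in runs, with a longest run of 11, and of all 10251 transcripts on 2 rows of these chromosomes 88.0%. The share of members in runs is close to that of the transcripts at 0 in both precipitates and nothing particular to the class is read from it.

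The runs lay mainly in the late stretch, where 1307 of 2174 members (60.1%) were in one, against 95 of 470 in the middle (20.2%) and 4 of 22 in the early stretch. When the number after a late member was listed, it was another member in 44.3% of 1898 cases. After the other low-expressed late transcripts the next number was a member in 35.2% of 2517 cases. Low-expressed transcripts at 0 in both precipitates came next in 38.3% of cases after late members and in 47.5% after the others. Those above 0 in both precipitates came next in 7.17% and 4.69%. Uneven shares were thus not particular to the members. The differences were not tested, and no error over animals can be given for them. Members in runs had a median EZH2_FPKM of 2.44 and those outside runs 2.41. High values were less frequent in runs, where 8.89% had a log2 ratio at or above 2, against 17.2% outside. Of the members outside runs, 375 were middle and 18 early, against 95 and 4 of those in runs.

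Neighbours in a run were only weakly related in EZH2_FPKM as measured. Over 892 pairs of adjacent members the Spearman correlation was 0.12 for EZH2_FPKM and 0.35 for lincRNA_FPKM, and within the late stretch, over 840 pairs, 0.06 and 0.34. The EZH2_FPKM of adjacent members differed by a median of 2.31-fold, and 43.5% of the pairs were within 2-fold. The pairs share libraries and members, so these values are descriptions. Of the 2666 members, 277 (10.4%) had exactly the same EZH2_FPKM as another member. The part of counting error from few fragments in these correlations was not tested.

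The longest run comprised 13 members on chromosome 7, from TCONS_00061366 to TCONS_00061378, all in the late stretch and all with an IgG_FPKM of 0. Its EZH2_FPKM had a median of 2.78 and ran from 0.744 to 13.0, and its lincRNA_FPKM from 0.306 to 0.895. The highest was TCONS_00061368, with an EZH2_FPKM of 13.0 and a lincRNA_FPKM of 0.454 (log2 ratio 2.61). High and low members largely alternated along the run, and 7 of the 13 had a ratio at or above 1.

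Further members of the run at or above 1 were TCONS_00061376 with an EZH2_FPKM of 7.02 and a lincRNA_FPKM of 0.306 (1.97), and TCONS_00061371 with 6.72 and 0.432 (1.84). TCONS_00061374 had 5.80 and 0.479 (1.65), and TCONS_00061366, at the start, 4.94 and 0.447 (1.50). Those closest to the threshold were TCONS_00061378, at the end, with 3.01 and 0.400 (1.06), and TCONS_00061372 with 2.78 and 0.372 (1.01). Both ends of the run thus passed the threshold.

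The other 6 members of the run fell short of it. TCONS_00061369 had an EZH2_FPKM of 1.98 and a lincRNA_FPKM of 0.390 (0.74), and its neighbour TCONS_00061370 had 1.94 and 0.354 (0.74). TCONS_00061373 had 1.85 and, as the member of the run with the highest total RNA level, 0.895 (0.41). TCONS_00061367 had 1.14 and 0.366 (0.41). The lowest were TCONS_00061377 with 0.953 and 0.436 (0.28) and TCONS_00061375 with 0.744 and 0.451 (0.16), on either side of TCONS_00061376, a member with high EZH2_FPKM.

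**Figure D5:**
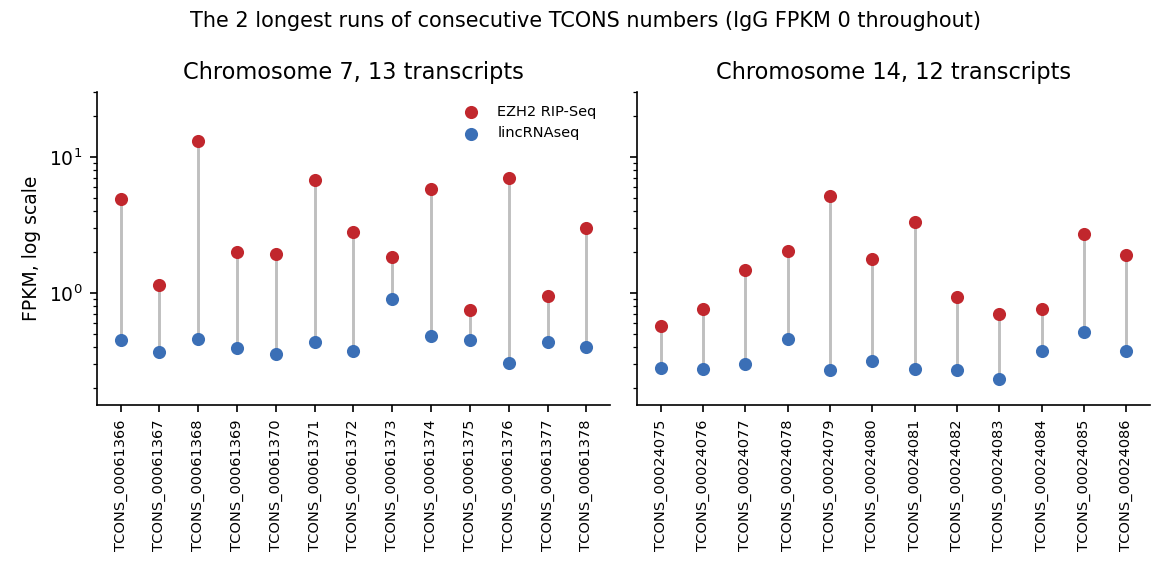
FPKM (log scale) in EZH2 RIP-Seq and lincRNAseq of the members of the longest runs of consecutive TCONS numbers, 13 on chromosome 7 and 12 on chromosome 14, with grey lines joining the values of a transcript. IgG FPKM was 0 for all, and EZH2 FPKM lies above lincRNA FPKM in each.

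The second longest run, of 12 members from TCONS_00024075 to TCONS_00024086 on chromosome 14, was chosen for description after its values were seen. Its EZH2_FPKM had a median of 1.62 and ran from 0.573 to 5.12, its IgG_FPKM was 0, and its lincRNA_FPKM ran from 0.234 to 0.518. Only TCONS_00024079 and TCONS_00024081 had a log2 ratio at or above 1, at 1.65 and 1.23. The next, of 9 members from TCONS_00006826 to TCONS_00006834 on chromosome 1, was higher, with a median of 4.22, a range of 1.56 to 22.9 and 7 members at or above 1. Long runs therefore differed in level as single members did.

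A single run lay in the early stretch, with 4 members from TCONS_00059347 to TCONS_00059350 on chromosome 7. TCONS_00059347, the lowest of them, had 47.1 in EZH2, 0 in IgG and 0.305 in lincRNAseq (log2 ratio 4.41), and the others rank 1, 3 and 7 among all members. The early stretch of chromosome 7 holds 8 transcripts in all. The 4 early members of chromosome 7 thus stand next to each other in the numbering, while the early members of other chromosomes stood alone.

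Over longer distances the density of members varied along the late stretch. In 5272 overlapping windows of 50 listed late transcripts each, a window size set after the data were seen, the median was 17 members and the range 6 to 33. The fullest windows, with 33 members, ran from TCONS_00006863 to TCONS_00006912 on chromosome 1 and from TCONS_00064313 to TCONS_00064367 on chromosome 8. The emptiest, with 6, ran from TCONS_00032857 to TCONS_00032937 on chromosome 18. In that window 8 transcripts were above 0 in EZH2, 5 were above 0 in IgG and 8 had a lincRNA_FPKM above 1. In the fullest window of chromosome 1, 39 were above 0 in EZH2, 6 were above 0 in IgG and none had a lincRNA_FPKM above 1. The windows were picked for their density. The median EZH2_FPKM of the members was higher in the fullest than in the emptiest window on 9 of the 18 chromosomes and lower on 9. On chromosome 2 it was 2.74 in the fullest and 0.935 in the emptiest window, and on chromosome 4 it was 2.33 and 4.08.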

How the data were processed

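RIP-Seq with EZH2 antibody, RIP-Seq with IgG, and lincRNAseq of total RNA were each carried out once on pig longissimus dorsi. The authors deposited FPKM values, made by trimming adaptors and poor reads, alignment to Sus_scrofa 10.2 with Tophat2, assembly with Cufflinks, comparison with the annotation by Cuffcompare and estimation with Cuffdiff. Tool versions and read totals are not given in the sources used here. The 26521 rows were reduced to 14580 transcripts, of which 2639 stood on 1 row. Left out with the same FPKM values were 255 transcripts on 1 row and 339 outside chromosomes 1 to 18.

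Members and lists were chosen with earlier results of these data known. Named transcripts were the 10 highest by EZH2_FPKM and by ratio, the longest run, those nearest the lincRNA_FPKM limits and the lowest by EZH2_FPKM, with exceptions stated. Shares have 95% Wilson intervals. With 1 library per condition no p-value was computed. Alternatives covered pseudocount, centring, denominator, threshold, FPKM limits, row number, run definition, chromosomes and stretch. Code was tested on simulated data. Tables were handled with pandas 2.3.3 and numpy 2.4.6, intervals with scipy 1.17.1 and plots with matplotlib 3.10.9, in Python 3.11.15.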

Additional observations from a re-analysis of the deposited data

How the results depend on the processing

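No paired analysis was possible because there was 1 library per condition. Of 55 alternative values for 8 results, 33 stayed within the tolerance (1.5 times for counts, the 95% interval over transcripts for medians and shares) and 22 did not. Of these, 0 changed sign, but only the median log2 ratio could have done so. An IgG_FPKM limit of below 0.01 selected the same 2666 members, so its values could not move. The 1190 members at or above 1 could not change with an EZH2_FPKM above 1, as that ratio needs an EZH2_FPKM above 2. The number within the tolerance is therefore no measure of stability. No alternative was left unrun. The median log2 ratio, 0.89, became 1.31 with a pseudocount of 1, 2.43 with 0.1, 0.10 after centring and 1.15 with IgG as the denominator. The 1190 members at or above 1 became 2338 with a pseudocount of 0.1, 456 after centring and 342 at a threshold of 2. With a lincRNA_FPKM above 0.5 there were 632 members, with a median EZH2_FPKM of 3.11, a median ratio of 0.96, 306 at or above 1, 160 in runs and a longest run of 5. With an EZH2_FPKM above 1 the medians were 2.98 for EZH2_FPKM and 1.07 for the ratio. Steps of up to 3 between numbers lengthened the longest run from 13 to 33, and runs of at least 3 held 774 members. Chosen after seeing the data, a pseudocount of 0 gave a median ratio of 2.74 and 2431 members at or above 1, and the late stretch alone a median EZH2_FPKM of 2.05, a median ratio of 0.76 and 790 at or above 1. A smaller pseudocount, a higher ratio threshold and a looser or stricter definition of runs move these values by construction. The cause of the other moves was not tested.

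The chromosome with the highest share of members was 17, but 2 with a lincRNA_FPKM above 0.5 and 3 when transcripts on 1 row were included. The relative fragment size stayed at 5.05 when values of up to 20 FPKM were used. Depth limits what an IgG_FPKM of 0 can show, if, as the low values give it, 1 fragment was worth 5.05 times as much FPKM there as in EZH2 RIP-Seq. Of the 470 transcripts used for this estimate, 38.3% lay within 0.5% of quotients of whole fragment numbers up to 4. Intervals cover counting error over transcripts of single libraries, and differences between animals could not be estimated.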
